A study of Mus musculus with 18 samples.

Results

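The knockout effect was compared between 5 and 8 months of age in mice that lack Ppt1. The quantity described is the difference of effects, that is, knockout minus wild type at 8 months, minus knockout minus wild type at 5 months, on the log2 scale of the array signal plus 16. A positive value means that the knockout lay further above (or less far below) the wild type at 8 months than at 5 months. It rests on 12 of the 18 arrays of the series, chosen by the genotype and age in their labels, with 3 arrays in each of 4 groups. These are knockout at 5 months (1 male, 2 females), wild type at 5 months (1 male, 2 females), knockout at 8 months (2 males, 1 female) and wild type at 8 months (1 male, 2 females). The other 6 arrays, 3 of each genotype at 3 months, entered the estimate of the spread and gave a set of genes chosen by their effect at 3 months. The labels give the genotypes as Knockout and Wild-type, without strain or allele, and name the source of the total RNA as both brain and cochlea. Whether each array stands for its own mouse is not stated, and the p-values therefore cover only the spread between the samples as hybridised, part of which may be technical. A whole-tissue RNA measurement cannot tell fewer cells of a type from less RNA per cell.

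The product of Ppt1, palmitoyl-protein thioesterase 1, works in lysosomes, where it cuts fatty acids from proteins that are to be degraded. People without the enzyme develop infantile neuronal ceroid lipofuscinosis, in which storage material collects in lysosomes, astrocytes and microglia become reactive and neurons are lost. An effect of the knockout can grow between the ages, hold its level (a plateau) or fade. Here an effect was called growing or fading only where the difference of effects itself passed the test. It was growing where the 8-month effect passed with the sign of that difference, and fading where the 5-month effect passed with the opposite sign, which includes effects that crossed 0. It was called a plateau where the effect passed at both ages with 1 sign and the 95% confidence interval of the difference lay within 0.5 of 0 on the log2 scale.

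Ppt1 read 12.8, 0.88 and 18.5 in the knockouts and 543, 607 and 629 in the wild types at 5 months. At 8 months it read 20.6, 14.7 and 23.4 in the knockouts and 587, 589 and 566 in the wild types. The knockouts lay far below the wild types on every array at both ages, with an effect of -4.57 ± 0.20 at 5 months and -4.11 ± 0.20 at 8 months (log2, knockout minus wild type, here and below ± the standard error of the fit). The difference of effects was 0.46 ± 0.29 (limma, adjusted p 0.562), and 2 of the 3 knockout arrays at 5 months lay at or below the array background. These values are from 1 probe set. Other tested Ppt1 probe sets had effects of -3.35, -0.65 and 0.30 at 5 months and -3.47, -0.595 and -0.175 at 8 months. Of these, only the probe set at -3.35 passed, at both ages.

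Knockout replicate 3 at 8 months stood apart from the other knockouts of its age. Along the main principal component of all 18 arrays, which held 24.2% of the variance, it lay at 9.9, whereas replicates 1 and 2 lay at 50.7 and 45.6. The 5-month knockouts lay between 11.1 and 17.7 and the wild types of all ages between -18.9 and -11.6. Its spike-in controls lay 0.425 on the log2 scale above their median over the arrays, against -0.198 to 0.198 on the other 17 arrays, and its Ppt1 signal of 23.4 was that of a knockout. This replicate is a male, as is replicate 1. The ratio of 5-prime to 3-prime actin signal, a sign of RNA quality, was 0.432 to 0.482 in the 8-month knockouts and 0.501 to 0.525 in the 8-month wild types. The part of RNA quality, sex or sample handling in the results was not tested. Values without this array are named as such below, and no difference of effects that passed without it passed with all arrays.

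No probe set passed for the difference of effects with all arrays. Of 27022 probe sets tested with limma, 0 had an adjusted p under 0.05 (0%), and the smallest adjusted p was 0.155. At an unadjusted p under 0.05 there were 1500 above 0 (5.55%) and 1588 below 0 (5.88%), 11.4% in all. The median 95% confidence interval reached 0.47 to either side of the estimate, so changes smaller than that were not resolvable for a typical probe set. At the single ages, 595 probe sets passed at 5 months (2.2%) and 3147 at 8 months (11.6%), and 425 passed at both with 1 sign. A further 2721 passed at 8 months and not at 5 months, and 169 at 5 months and not at 8 months. These counts do not show that the effects differ between the ages, since the test of the difference passed for none of them. With all arrays of both sexes in other settings the count of differences was 0, except for 185 with array weights and 1 with the 12 arrays and a sex term, and females only gave 292. The females-only fit has 1 knockout array at 8 months (replicate 2), takes its spread from the other groups and also leaves out replicate 3. The array weight was lowest for knockout replicate 3 at 8 months (0.311, against 0.653 to 1.552 on the other arrays), so that fit also counts this array less. The unadjusted count ranged from 2332 to 5136 over the settings.

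The count depended on 1 array. Without knockout replicate 3 at 8 months, 1082 probe sets passed (4%), 542 above 0 (2.01%) and 540 below 0 (2%). Of these, 987 were growing (3.65%) and 60 fading (0.222%). Of the 60, 7 had a smaller 8-month effect of the same sign and 53 an 8-month estimate of the opposite sign, which passed at 8 months in 14 and was at least as large as the 5-month effect in 7. Leaving out any of the other 17 arrays gave 0 calls, or 1 call in the case of knockout replicate 2 at 8 months. All 1082 had the same sign with all arrays, and 889 of them had an unadjusted p under 0.05 there. The knockout group at 8 months then holds 1 male and 1 female array, and setting the array aside was a decision taken after its values were seen. The plot of calls with each array left out shows the contrast.

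**Figure D1:**
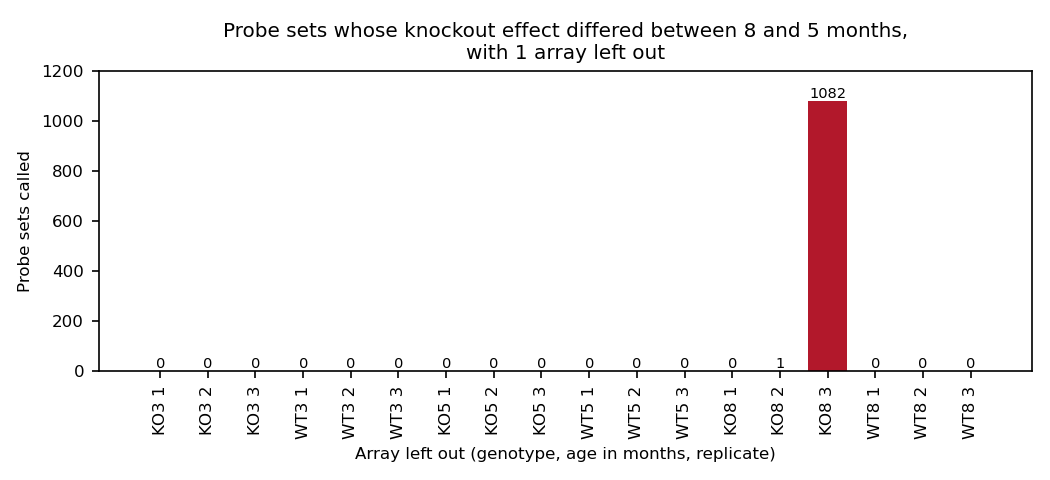
Number of probe sets with an adjusted p under 0.05 (limma) for the difference of the knockout effect between 8 and 5 months when 1 array is left out, for each of the 18 arrays (x axis: genotype, age in months and replicate of the array; KO, knockout; WT, wild type). The bar for knockout replicate 3 at 8 months stands at 1082, that for knockout replicate 2 at 8 months at 1, and the others at 0.

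Among the 542 probe sets above 0, knockout replicates 1 and 2 at 8 months both lay beyond every 5-month knockout in 518. Knockout replicate 3 lay beyond them in the same direction in 175, within their range in 242 and past them in the opposite direction in 125. Among the 540 below 0, both replicates lay beyond every 5-month knockout in 530, and replicate 3 lay beyond in 178, within in 239 and opposite in 123. The change between the ages was larger in the knockouts than in the wild types in 482 of the 542 and 511 of the 540. These numbers describe probe sets that were chosen with replicate 3 left out.

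The genes with the smallest p for a positive difference, given as values since none passed, were Zfp326, Cog7, Dock4, Hspb1 and Acot11. Hspb1, a small heat shock protein of reactive astrocytes, read 178, 202 and 201 in the knockouts and 141, 146 and 103 in the wild types at 5 months. At 8 months it read 1055, 574 and 338 in the knockouts and 82.1, 155 and 69.4 in the wild types. All 3 knockout arrays at 8 months lay above every 5-month knockout, replicate 3 included. The effect of the knockout was 0.54 ± 0.27 at 5 months (adjusted p 0.402) and 2.46 ± 0.28 at 8 months (adjusted p 4.32e-06), and the difference was 1.93 ± 0.39 (adjusted p 0.155). A second Hspb1 probe set had a difference of 1.36 ± 0.34.

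The Cog7 probe set, for a subunit of a Golgi tethering complex, was the 1 that passed at both ages with opposite signs. It read 193, 211 and 172 in the knockouts and 302, 348 and 352 in the wild types at 5 months. At 8 months it read 281, 329 and 254 in the knockouts and 152, 165 and 231 in the wild types. The groups did not overlap at either age, with the knockouts below the wild types at 5 months (-0.75 ± 0.18) and above them at 8 months (0.65 ± 0.19), a difference of 1.40 ± 0.26 (adjusted p 0.155). The change between the ages was 0.56 ± 0.19 in the knockouts and -0.84 ± 0.18 in the wild types.

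Zfp326, a zinc finger protein, had a difference of 0.88 ± 0.16, with a change between the ages of 0.44 ± 0.12 in the knockouts and -0.45 ± 0.11 in the wild types. Dock4, a guanine nucleotide exchange factor for small GTPases, had a difference of 1.47 ± 0.29 at 1 probe set, against 0.32, 0.56 and 0.72 at its other tested probe sets. Acot11, an acyl-CoA thioesterase, read 263, 246 and 246 in the knockouts and 314, 276 and 326 in the wild types at 5 months, and 378, 369 and 252 in the knockouts and 220, 220 and 199 in the wild types at 8 months. Its difference was 0.87 ± 0.18. In this gene only replicates 1 and 2 of the 8-month knockouts lay above the 5-month knockouts.

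On the negative side the smallest p belonged to Mfge8, Serpinb1a, Hmgcs1, B3gnt2 and Abcf2. Mfge8, a secreted protein that bridges dying cells and phagocytes, read 583, 557 and 543 in the knockouts and 571, 547 and 574 in the wild types at 5 months. At 8 months it read 368, 369.5 and 459 in the knockouts and 623, 703 and 688 in the wild types. The 5-month groups overlapped, and at 8 months every knockout lay below every wild type, by -0.73 ± 0.10 (adjusted p 3.04e-05), with a difference of -0.73 ± 0.13 (adjusted p 0.155). B3gnt2, a glycosyltransferase, had a difference of -1.07 ± 0.22 at 1 probe set and -0.06 ± 0.25 at another, so its probe sets disagreed. Abcf2, an ATP-binding protein, had -0.76 ± 0.16 at 1 probe set and 0.48 ± 0.44 at another.

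Serpinb1a, an inhibitor of neutrophil proteases, had opposite signs at the ages. It read 161, 187 and 199 in the knockouts and 71.2, 106 and 85.7 in the wild types at 5 months. At 8 months it read 70.1, 69.8 and 165 in the knockouts and 166, 149 and 139 in the wild types. The knockouts were higher at 5 months on every array (0.95 ± 0.22, adjusted p 0.0171), whereas at 8 months replicates 1 and 2 lay below every wild type and replicate 3 within their range. The difference was -1.55 ± 0.31 with all arrays and -1.89 ± 0.22 without replicate 3 (adjusted p 5.61e-05). Its second probe set had a difference of -0.13 ± 0.35.

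**Figure D2:**
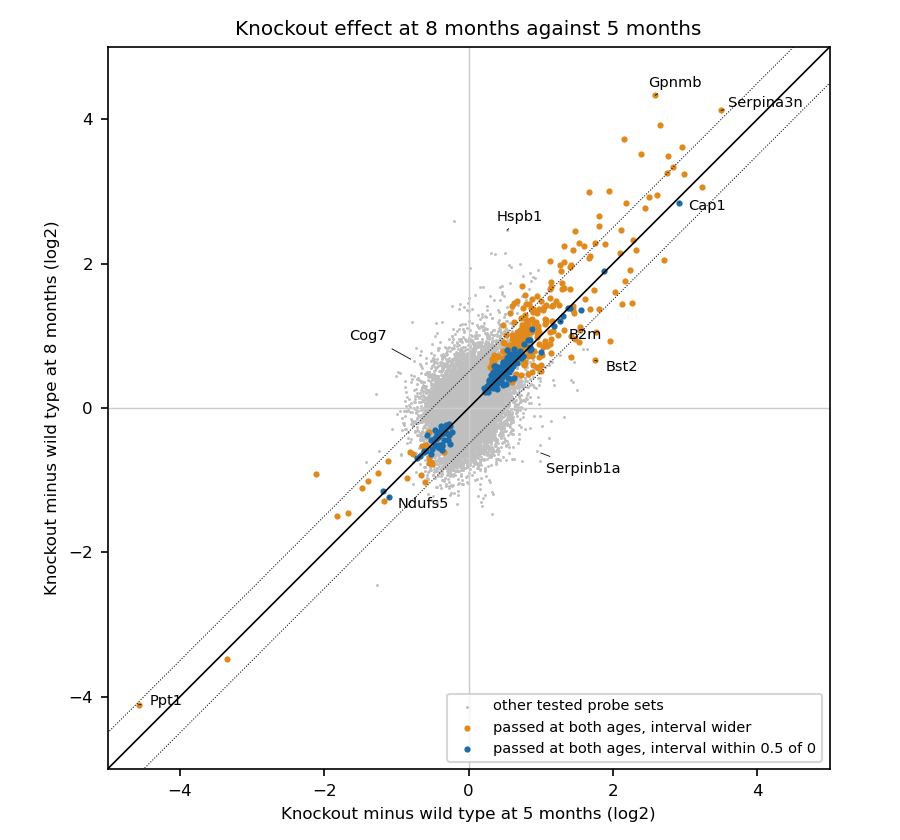
Knockout minus wild type at 8 months (y axis) against the same at 5 months (x axis), both log2, for 27022 probe sets. Blue points passed at both ages with an interval of the difference within 0.5 of 0 (173 probe sets), orange points passed at both ages without that bound (252), grey points are the rest, the solid line marks equal effects and the dotted lines a difference of 0.5. Gpnmb and Hspb1 lie above the lines, Bst2 and Serpinb1a below, and Cap1, B2m and Ndufs5 between them.

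A plateau was found for 173 probe sets (0.64%), of which 120 (95 genes) were higher and 53 (41 genes) lower in the knockout. The count was 68, 98 and 110 without knockout replicate 1, 2 or 3 at 5 months, 104 and 83 without wild-type replicate 1 or 2 at 5 months, 261 without knockout replicate 3 and 112 without wild-type replicate 1 at 8 months. Cap1, an actin-binding protein, read 1257, 1178 and 1266 in the knockouts and 151, 166 and 133 in the wild types at 5 months. The 8-month signals were 1256, 1226 and 1109 in the knockouts and 171, 158 and 129 in the wild types. The groups were far apart and the knockouts of both ages overlapped. The effect was 2.92 ± 0.13 at 5 months and 2.85 ± 0.14 at 8 months, and the 95% confidence interval of the difference ran from -0.46 to 0.32. Cap1 lies next to Ppt1 on the chromosome, and its second probe set had a difference of 0.34 ± 0.18, with an interval that passed 0.5.

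Tyrobp, a signalling adaptor of microglia, had effects of 1.88 ± 0.15 at 5 months and 1.90 ± 0.15 at 8 months. Its 8-month knockout signals were 1164, 1402 and 704, against 288, 275 and 276 in the wild types, so replicate 3 lay well below the other knockouts. Without replicate 3 the difference was 0.27 and Tyrobp no longer met the plateau bound. H2-K1, a class I histocompatibility heavy chain, had effects of 1.56 ± 0.10 and 1.35 ± 0.10 at 5 and 8 months. B2m, the light chain of the same molecules, read 3059, 3819 and 3388 in the knockouts and 1329, 1626 and 1576 in the wild types at 8 months, with effects of 1.26 ± 0.08 at 5 months and 1.20 ± 0.08 at 8 months. Ifitm3, an interferon-induced membrane protein, had effects of 1.40 ± 0.12 at 5 months and 1.38 ± 0.12 at 8 months, and the interval of its difference ran from -0.38 to 0.34.

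Pdpn (podoplanin, a membrane protein of reactive glia) had effects of 1.38 ± 0.13 at 5 months and 1.39 ± 0.14 at 8 months. One probe set of Aqp4, the water channel of astrocyte endfeet, had 1.30 ± 0.12 and 1.27 ± 0.12 at 5 and 8 months. A brighter probe set of the same gene had 1.04 and 1.40 at these ages and a difference of 0.35 (unadjusted p 0.0229), so its probe sets disagreed. Grn (progranulin, a lysosomal and secreted growth factor), Tmem176b (a membrane protein of myeloid cells) and Lgals1 (galectin-1) had differences of 0.21, 0.09 and 0.11, each with an interval inside the bound. Without replicate 3 the Grn difference was 0.35 (adjusted p 0.0552) and no longer met the bound, and its other 2 tested probe sets (0.21 and 0.33) did not meet it with all arrays.

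Among the lower genes, Ndufs5, a subunit of respiratory complex I, read 1104, 1164 and 1232 in the knockouts and 2534, 2635 and 2422 in the wild types at 5 months. Its signals at 8 months were 964, 1048 and 1147 in the knockouts and 2529, 2606 and 2413 in the wild types. No knockout came near a wild type, and the effect was -1.11 ± 0.07 at 5 months and -1.24 ± 0.07 at 8 months. Gabra2, a GABA receptor subunit, was lower by similar amounts at its main probe set (-1.19 ± 0.13 at 5 months, -1.15 ± 0.14 at 8 months), and its other tested probe sets had differences of 0.38 and -0.12.

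A further 252 probe sets (0.933%) passed at both ages with 1 sign but had an interval too wide to call a plateau, 229 of them higher in the knockout. Those described next were named after their values were seen, from the 12 probe sets with the largest 8-month effects, which also held Ppt1, Lyz1, Lcn2, Rhoj (2.99 at 8 months) and the second Cap1 probe set (2.77). Gpnmb, a membrane glycoprotein of lipid-laden phagocytes, read 239.9, 336 and 258 in the knockouts and 36.8, 21.0 and 42.6 in the wild types at 5 months. By 8 months the signals were 1506, 1459 and 294 in the knockouts and 24.6, 35.4 and 37.2 in the wild types. Replicates 1 and 2 at 8 months were far above every 5-month knockout and replicate 3 lay among them. The difference was 1.75 ± 0.52 with all arrays (adjusted p 0.246) and 2.41 ± 0.29 without replicate 3 (adjusted p 7.36e-05).

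The lysozyme Lyz2 followed the same layout of arrays. It read 585, 906 and 618 in the knockouts and 99.98, 159 and 106 in the wild types at 5 months, and 2133, 2424 and 688 in the knockouts and 99.0, 170.3 and 135 in the wild types at 8 months. Its difference was 1.13 ± 0.39 with all arrays and 1.61 ± 0.23 without replicate 3 (adjusted p 0.000347). Lgals3 (galectin-3) had 0.73 ± 0.42 with all arrays and 1.22 ± 0.28 without it (adjusted p 0.0166). Clec7a, a pattern receptor of activated microglia, had effects of 2.99 ± 0.28 at 5 months and 3.24 ± 0.29 at 8 months and passed neither way (difference 0.25 ± 0.40, and 0.37 with an adjusted p of 0.683 without replicate 3). Every wild type of both ages was at background for Cst7, which encodes a protease inhibitor of activated microglia, and the knockouts were at least 8.197-fold higher at 5 months and at least 11.23-fold higher at 8 months.

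**Figure D3:**
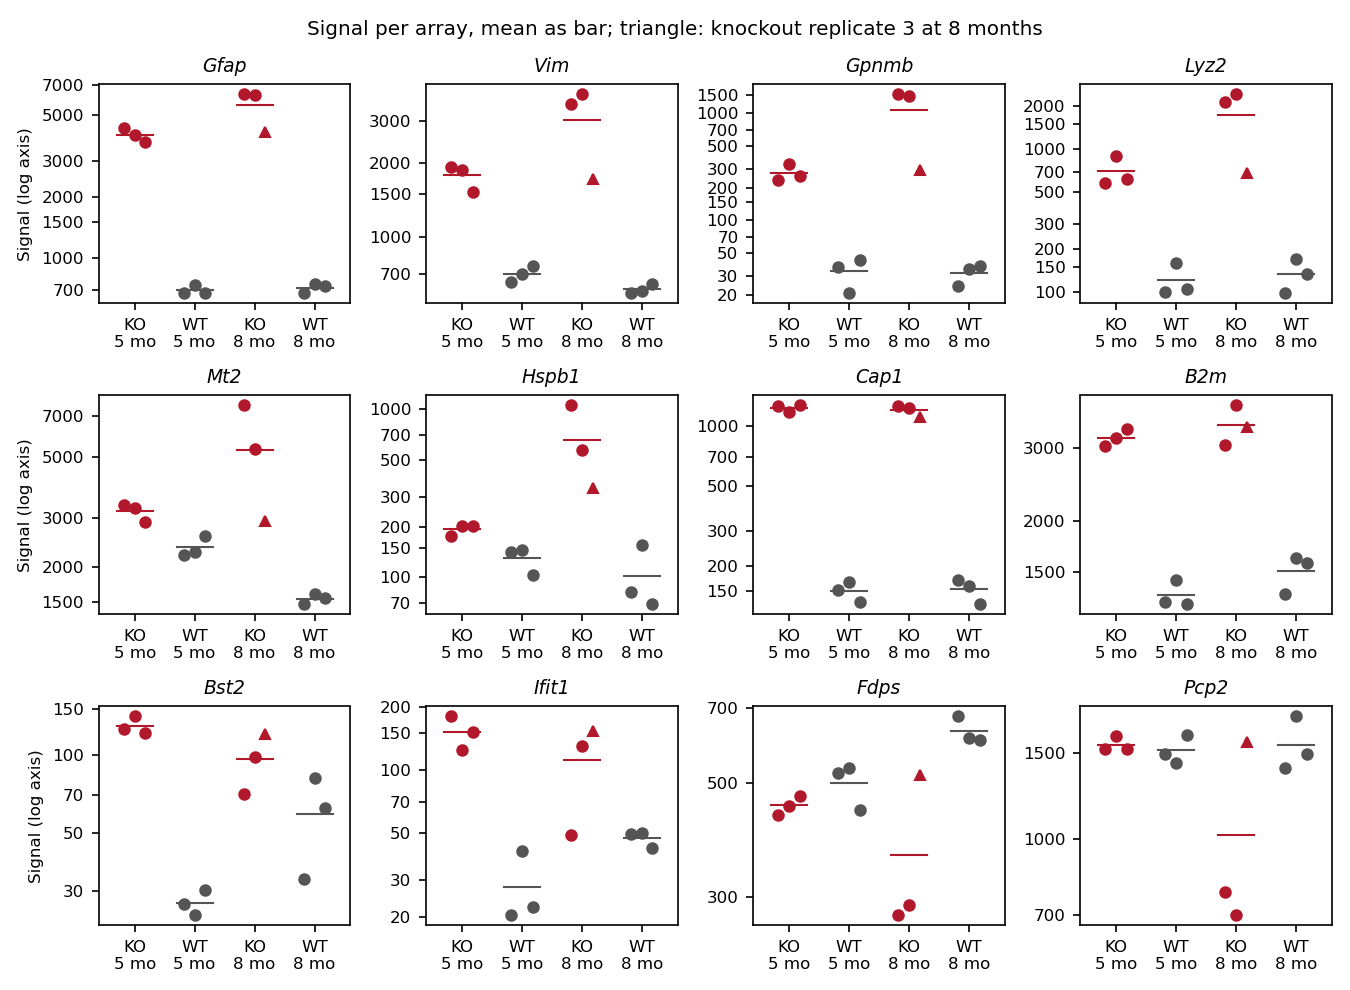
Signal of 12 genes (log axis) on each array of the 4 groups, from left to right knockout (KO, red) and wild type (WT, grey) at 5 months, then knockout and wild type at 8 months. Points are arrays, bars are means of 3 arrays, and the triangle is knockout replicate 3 at 8 months. In Gfap, Vim, Gpnmb, Lyz2 and Mt2 the triangle lies near the 5-month knockouts while the other 8-month knockouts lie above, in Fdps and Pcp2 those lie below it, and in Cap1 and B2m the 3 arrays lie together.

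Reactive astrocytes are star-shaped glia that thicken their intermediate filaments and secrete acute-phase proteins after injury. Of 26 measured genes of this list, 15 were higher at 5 months (2.31% of all genes tested were) and 23 at 8 months (6.97% of all genes), and 0 were lower at either age (0.657% and 5.96% of all genes). Their median effect was 0.78 at 5 months and 1.45 at 8 months, and the median difference was 0.42, against -0.02 over all genes. No member passed for the difference with all arrays. Without replicate 3 there were 12 of 26 above 0 and 0 below, against 270 above (2.17%) and 295 below (2.37%) among all genes, 4.53% together. In the single 8-month knockouts the median over the list was 1.62 and 1.75 above the wild-type mean in replicates 1 and 2, and 0.69 in replicate 3. The 3 knockouts at 5 months had 0.75, 0.79 and 0.76.

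Gfap, the intermediate filament of astrocytes, read 4333, 4007 and 3692 in the knockouts and 677, 737 and 678 in the wild types at 5 months. The 8-month signals were 6313, 6303 and 4122 in the knockouts and 675, 746 and 729.5 in the wild types. Replicate 3 fell within the range of the 5-month knockouts and the other 8-month knockouts lay above it. The difference was 0.43 ± 0.16 with all arrays (adjusted p 0.308) and 0.62 ± 0.10 without replicate 3 (adjusted p 0.00113). Vim (vimentin), a filament protein of the same kind, had 0.93 ± 0.26 with all arrays and 1.25 ± 0.15 without replicate 3 (adjusted p 7.41e-05).

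Socs3, an inhibitor of cytokine signalling, had 1.29 ± 0.57 with all arrays and 2.02 without replicate 3 (adjusted p 0.000729). Serpina3n, an acute-phase protease inhibitor, already had an effect of 3.50 ± 0.24 at 5 months, and the difference was 0.63 ± 0.34 with all arrays and 1.03 ± 0.22 without replicate 3 (adjusted p 0.0112). Cxcl10, a chemokine on this list and the interferon list, had effects of 2.33 ± 0.26 at 5 months and 2.19 ± 0.27 at 8 months, and its difference did not pass with or without the array. Slc1a2, the main glutamate transporter of astrocytes, was a plateau at 0.29 and 0.32.

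Macrophage and phagocyte genes had a median effect of 0.79 at 5 months and 1.26 at 8 months over 20 measured genes, with a median difference of 0.51. Of these, 10 were higher at 5 months (2.31% of all genes) and 17 at 8 months (6.97%), and 0 were lower. Without replicate 3, 6 passed above 0 (2.17% of all genes) and 0 below. Among them were Lyz2, Mpeg1 (a pore-forming protein of phagocytes, 0.36 with all arrays and 0.69 without replicate 3), Tlr2 (a receptor for bacterial lipoproteins, 1.07 and 1.23) and Laptm5 (a lysosomal membrane protein of blood cells, 0.50 and 0.59). Other tested Laptm5 probe sets had 0.60, -0.095 and -0.43 with all arrays, so they disagreed in sign. The 19 measured genes of disease-associated microglia had medians of 1.06 at 5 months and 0.75 at 8 months and a median difference of 0.09. Of the 19, 16 were higher at 5 months (2.31% of all genes) and 15 at 8 months (6.97%), and 0 were lower. Without replicate 3, 5 passed above 0 (2.17% of all genes), Gpnmb, Ctsd, Lgals3, Ctsb and Cd9, and 0 below. With all arrays Apoe, Fabp5 and Ctsb were plateaus. The sign of the median difference of this list was not stable, from -0.05 to 0.40 over the settings. Complement genes, 8 measured, had medians of 0.97 and 1.42 at 5 and 8 months and a median difference of 0.31. Of the 8, 4 were higher at 5 months (2.31% of all genes) and 5 at 8 months (6.97%), and 0 were lower. Without replicate 3, 0 passed below 0 and 3 passed above 0 (2.17% of all genes). These were Serping1, the inhibitor of the first complement component (0.61 with all arrays and 0.88 without replicate 3), and C1qc (0.43 and 0.74) and C1qa (0.335 and 0.55), chains of that component.

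Lysosomal genes had a median difference near 0. Of 47 measured, 18 were higher at 5 months (2.31% of all genes) and 25 at 8 months (6.97%). The medians were 0.32 and 0.43, with a median difference of 0.06 (-0.03 to 0.18 over the settings). The list held 10 plateaus, against 112 of 12490 over all genes. Among them were Lamp1 (a membrane glycoprotein), Hexa (a hexosaminidase subunit), Npc2 (a sterol carrier), Tpp1 (the protease lost in late infantile lipofuscinosis), Gm2a and Asah1. Ctsd, the main aspartic protease of lysosomes, read 1924, 2150 and 2012 in the knockouts and 924, 986 and 965 in the wild types at 5 months. Its signals at 8 months were 2992, 3104 and 1893 in the knockouts and 1015, 971 and 949 in the wild types. Its difference was 0.36 ± 0.16 with all arrays and 0.56 ± 0.09 without replicate 3 (adjusted p 0.000666), when Ctsb, Ctsh, Galc and Fuca1 passed as well. That made 5 of 47 above 0 (2.17% of all genes) and 0 below (2.37%). With all arrays, tested probe sets disagreed in sign for Galc (0.69 and -0.10) and Fuca1 (0.30, 0.195 and -0.21).

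Metallothioneins, small proteins that bind zinc and copper, were further apart at 8 months. Mt2 read 3343, 3277 and 2908 in the knockouts and 2210, 2260 and 2594 in the wild types at 5 months. By 8 months the signals were 7645, 5310 and 2926 in the knockouts and 1473, 1608 and 1543 in the wild types. The groups did not overlap at either age, and the lower wild types at 8 months added to the gap, with a change between the ages of 0.65 ± 0.19 in the knockouts and -0.60 ± 0.19 in the wild types. The effect was 0.43 ± 0.19 at 5 months and 1.68 ± 0.19 at 8 months, a difference of 1.25 ± 0.27 (adjusted p 0.155) with all arrays and 1.60 ± 0.15 without replicate 3 (adjusted p 6.95e-06). Mt1 had 0.74 ± 0.20 and 0.99 ± 0.11 (adjusted p 5.61e-05 without replicate 3). Cyba, a subunit of the phagocyte oxidase that stands on the same list of 23 antioxidant genes, had 0.96 ± 0.27 and 1.23 ± 0.21, and Gpx3, a glutathione peroxidase, also passed without replicate 3.

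Interferon response genes lay on the other side. Interferons switch on genes that carry a promoter motif called the interferon-stimulated response element. Of 30 measured genes, 21 were higher at 5 months (2.31% of all genes) and 20 at 8 months (6.97%). At either age 0 were lower (0.657% and 5.96% of all genes), and the median effects were 0.99 and 0.72. The difference was below 0 in 24 of 30 genes, against 6722 of 12490 over all genes. Its median was -0.25 (-0.39 to -0.15 over the settings), and 0 of the 30 passed with all arrays. Without replicate 3, 4 genes passed below 0 (2.37% of all genes) and 0 above (2.17%). All 4 were fading, a class that then held 42 of 12465 genes read from their brightest probe set. The single 8-month knockouts lay 0.46, 0.70 and 1.00 above the wild type in the median, so here replicate 3 was the highest, and the 5-month knockouts lay at 1.09, 0.98 and 1.04.

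Bst2 (tetherin, which holds budding viruses at the cell surface) read 125, 140.1 and 122 in the knockouts and 26.8, 24.3 and 30.3 in the wild types at 5 months. The 8-month signals were 70.5, 97.95 and 119.8 in the knockouts and 33.6, 81.7 and 62.3 in the wild types. The groups were apart at 5 months and overlapped at 8 months, where all 3 wild types were higher than any 5-month wild type. The change between the ages was -0.34 ± 0.20 in the knockouts and 0.75 ± 0.20 in the wild types. The difference was -1.09 ± 0.29 with all arrays (adjusted p 0.215) and -1.26 ± 0.28 without replicate 3 (adjusted p 0.0136).

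Ifit1, which binds foreign RNA, read 179.9, 125 and 152 in the knockouts and 20.3, 40.9 and 22.2 in the wild types at 5 months. Its signals at 8 months were 49.0, 131 and 154 in the knockouts and 49.3, 49.8 and 42.6 in the wild types. Replicate 1 at 8 months had no more than the wild types, and the other knockouts lay above them. Its difference was -1.03 ± 0.37 with all arrays and -1.30 ± 0.34 without replicate 3 (adjusted p 0.0358). Ifit3, of the same family, had -0.71 ± 0.31 and -1.004 ± 0.25 (adjusted p 0.0235 without replicate 3), and Rtp4, a chaperone of receptors, had -0.62 ± 0.33 and -0.98 ± 0.25 (adjusted p 0.0287). Ifitm3 and Irf9 were the 2 plateaus of the list, of which Irf9 no longer met the bound without replicate 3, and Gbp2 and Gbp3, interferon-induced GTPases, had differences of -0.31 and 0.15 that did not pass either way.

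The response element, searched as GAAA, any 2 bases and GAAA on both strands (overlapping matches allowed) in RefSeq promoters (GRCm38.p6, 250 bases before to 50 after each start), was present in 13 of the 24 measured list genes with a promoter in that table (54.2%) and in 1079 of 27025 genes in all (3.99%). Matches before the start were also found in Gbp2, Gbp3 and Cxcl10, which did not pass either way. None was found there for Rtp4, which faded without replicate 3. Whether the motif goes with fading was not tested. A match is a description of the letters and not a binding site. The windows of 60 bases that hold it are shown for 3 of the genes that faded without replicate 3, on the gene's strand and with 1 match in capitals, which in Ifit1 and Ifit3 reads as the reverse complement of the searched letters. The Ifit1 window holds a second match and the Bst2 window a second, overlapping one, both left in lower case where they lie outside the capitals. They lie at chr19:34640760-34640819 (Ifit1, plus strand), chr19:34583348-34583407 (Ifit3, plus strand) and chr8:71537568-71537627 (Bst2, minus strand).
Ifit1: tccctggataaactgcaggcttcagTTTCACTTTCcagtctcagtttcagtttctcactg
Ifit3: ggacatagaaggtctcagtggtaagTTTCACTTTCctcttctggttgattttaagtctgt
Bst2: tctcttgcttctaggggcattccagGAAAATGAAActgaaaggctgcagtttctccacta

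**Figure D4:**
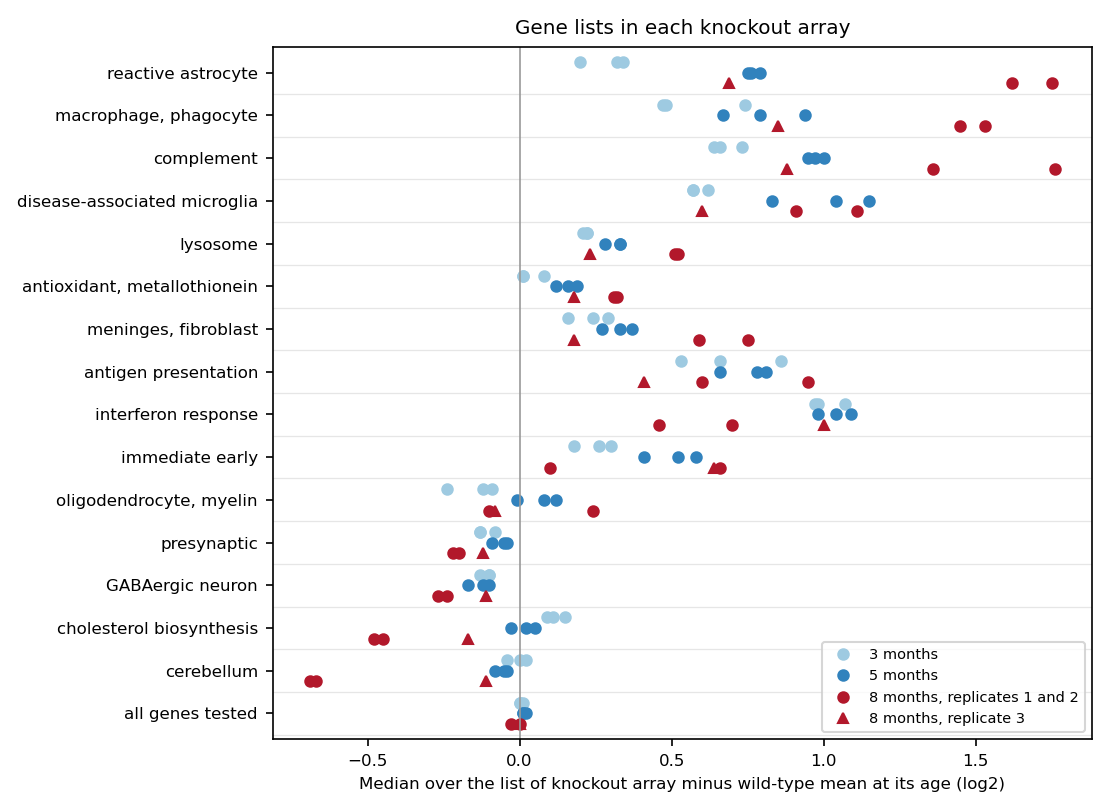
Median over each gene list of the knockout array minus the wild-type mean of its age (log2, x axis) for the 9 knockout arrays, with 15 lists and all genes tested in rows. Points are coloured by age and the triangle is knockout replicate 3 at 8 months. Replicates 1 and 2 at 8 months stand right of the 5-month arrays in reactive astrocyte (1.62 and 1.75) and left of them in cerebellum (-0.67 and -0.69), while replicate 3 lies near the 5-month arrays (0.69 and -0.11).

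Cholesterol biosynthesis genes were near the wild type at 5 months and lower at 8 months. In the brain this pathway supplies nearly all cholesterol, since lipoproteins of the blood do not pass the barrier, and its genes share the activator Srebf2. Of 20 measured, 0 passed in either direction at 5 months and 11 were lower at 8 months (5.96% of all genes were), with median effects of 0.00 and -0.42. The difference was below 0 in 20 of 20 genes, against 6722 of 12490 over all genes. It had an unadjusted p under 0.05 in 11, as did 6.68% of all genes below 0. Its median was -0.42 (-0.47 to -0.36 over the settings). With all arrays 0 passed, and without replicate 3 there were 7 below 0 (2.37% of all genes) and 0 above (2.17%).

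Fdps, which makes farnesyl diphosphate, read 434, 452 and 473 in the knockouts and 523, 536 and 444 in the wild types at 5 months. By 8 months the signals were 277, 289.9 and 519 in the knockouts and 675, 612 and 608 in the wild types. Every 8-month knockout lay below every 8-month wild type, and replicate 3 was above the 5-month knockouts. The effect was -0.14 ± 0.14 at 5 months and -0.88 ± 0.15 at 8 months (adjusted p 0.000436), a difference of -0.74 ± 0.20 with all arrays and -0.98 ± 0.12 without replicate 3 (adjusted p 8.11e-05). The change between the ages was -0.41 ± 0.15 in the knockouts and 0.33 ± 0.14 in the wild types.

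Hmgcs1, which makes the precursor of mevalonate, had the smallest unadjusted p of the list. It read 2660, 2576 and 2614 in the knockouts and 2470, 2467 and 2591 in the wild types at 5 months, and 2086, 1791 and 2436 in the knockouts and 2774, 2725 and 2762 in the wild types at 8 months. All 3 knockouts at 8 months lay below the 5-month knockouts. Its difference was -0.48 ± 0.11 with all arrays (unadjusted p 0.000247, adjusted p 0.16), and its other 3 tested probe sets had -0.53, -0.51 and -0.35. Msmo1, a sterol methyl oxidase, had -0.68 ± 0.23 with all arrays and -0.97 ± 0.13 without replicate 3 (adjusted p 0.000144), and Idi1, an isomerase of the pathway, had -0.69 ± 0.25 and -1.01 ± 0.14 (adjusted p 0.000392). Insig1, which retains the activator in the membrane, and Srebf2 itself had differences of 0.00 and -0.27 and did not pass either way.

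A sterol regulatory motif, searched as TCACNCCAC on both strands, was present in the promoters of 1 of the 16 list genes with a promoter in the table (6.25%) and in 388 of 27025 genes in all (1.44%). The single match was in Hmgcs1, at chr13:119690189-119690248 of GRCm38.p6 on the plus strand, with the match in capitals.
Hmgcs1: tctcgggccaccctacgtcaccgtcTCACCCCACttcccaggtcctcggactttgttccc

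Of 16 measured cerebellar genes, markers of Purkinje cells and granule cells, 0 passed at 5 months and 8 were lower at 8 months (5.96% of all genes), with median effects of -0.03 and -0.51 and a median difference of -0.37 (-0.58 to -0.32 over the settings). Without replicate 3, 10 of 16 passed below 0 (2.37% of all genes) and 0 above, and 0 of 16 passed with all arrays. The single 8-month knockouts lay at -0.67 and -0.69 in replicates 1 and 2 and at -0.11 in replicate 3, relative to the wild-type mean.

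Pcp2, a Purkinje cell protein, read 1529, 1625 and 1524 in the knockouts and 1493, 1430 and 1628 in the wild types at 5 months. The 8-month signals were 781, 700.1 and 1576 in the knockouts and 1396, 1780 and 1491 in the wild types. Replicates 1 and 2 at 8 months lay below every other array and replicate 3 lay among the wild types. The difference was -0.75 ± 0.25 with all arrays (adjusted p 0.282) and -1.09 ± 0.12 without replicate 3 (adjusted p 4.72e-05). Car8, another Purkinje cell gene, had -0.79 ± 0.30 with all arrays and -1.20 ± 0.10 without it (adjusted p 3.1e-06). The calcium-binding proteins Calb1 and Pvalb had -0.51 ± 0.16 and -0.39 ± 0.14 with all arrays, and -0.71 ± 0.09 and -0.56 ± 0.09 without replicate 3. Of the granule cell genes, Cbln1 (0.22), Cbln3 (0.00) and Zic1 (0.35) did not pass with or without the array, whereas Gabra6 (-0.27 with all arrays) passed without it at -0.43.

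Other neuronal lists had small median differences. These were -0.11 for excitatory neurons, -0.07 for GABAergic neurons, -0.14 for presynaptic and postsynaptic genes alike and -0.13 for thalamus. With all arrays 0 members of these lists passed. Without replicate 3, 4 of 28 excitatory, 3 of 28 GABAergic, 4 of 26 presynaptic and 3 of 19 postsynaptic genes passed below 0 (2.37% of all genes), and 1 GABAergic gene (Tac1) and 1 postsynaptic gene (Nlgn1) above 0. Stx1a (syntaxin 1A, which docks synaptic vesicles) read 1405, 1293 and 1332 in the knockouts and 1283, 1385 and 1258 in the wild types at 5 months. Its signals at 8 months were 908, 1000 and 1200 in the knockouts and 1520, 1390 and 1467 in the wild types. All 3 knockouts at 8 months lay below every other array, and the difference was -0.54 ± 0.12 with all arrays (adjusted p 0.155).

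Tbr1, Prkcd and Pde10a were named for their large 5-month effects, a choice that favours smaller effects at 8 months. Tbr1, which encodes a cortical transcription factor, had effects of -0.76 ± 0.15 at 5 months and -0.63 ± 0.15 at 8 months. Prkcd, a kinase abundant in thalamic neurons, was a plateau at -0.71 ± 0.11 and -0.69 ± 0.12. Pde10a, the striatal phosphodiesterase, passed at 5 months and not at 8 months (-0.73 ± 0.12 and -0.21 ± 0.13), with a difference of 0.52 ± 0.18 that did not pass with or without replicate 3 (adjusted p 0.285 and 0.169). Its other 4 tested probe sets had differences of 0.20, -0.22, 0.02 and -0.16, so they disagreed in sign.

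Immediate early genes, which neurons transcribe within minutes of activity, diverged within the list of 32. The median effect was 0.55 at 5 months and 0.38 at 8 months, with a median difference of -0.19. At 5 months 3 were higher (2.31% of all genes) and at 8 months 11 (6.97%), and 0 were lower at either age. The difference was above 0 in 13 and below 0 in 19. In the single 8-month knockouts the list median was 0.66, 0.1 and 0.64, so here replicate 2 was the lowest. Without replicate 3 there were 4 above 0 (2.17% of all genes) and 7 below (2.37%). The members named next all had differences below 0. Arc, whose protein acts at synapses, read 433, 392 and 360 in the knockouts and 381, 73.2 and 108 in the wild types at 5 months. By 8 months the signals were 56.6, 56.4 and 506 in the knockouts and 116, 109 and 129 in the wild types. Wild-type replicate 1 at 5 months and knockout replicate 3 at 8 months were high against their groups. The difference was -1.45 ± 0.67 with all arrays (adjusted p 0.421) and -2.27 ± 0.42 without knockout replicate 3 (adjusted p 0.00388). Nr4a1 and Egr1, nuclear factors of the same response, were -1.25 and -1.02 with all arrays and -1.69 ± 0.31 and -1.48 ± 0.23 without it, while Fos had effects of 1.76 ± 0.27 at 5 months and 1.05 ± 0.28 at 8 months and its difference of -0.71 ± 0.39 did not pass either way.

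Of 20 measured oligodendrocyte genes 3 passed without replicate 3, Cldn11 (a tight junction protein of myelin, 0.84 with all arrays and 0.99 without replicate 3) and Mal (a myelin proteolipid, 0.33 and 0.50) above 0 and Ugt8a (which makes galactosylceramide, -0.64 and -0.97) below 0. Among all genes 4.53% passed without it. Choroid plexus genes had 0 of 13 that passed at either age or for the difference. The blood list had 0 of 6 and the lymphocyte list 0 of 2. Of 26 cochlear genes on the array 9 were bright enough to be tested, Otof, Coch and Myo7a among them, whereas 16 of 17 cerebellar and 28 of 28 excitatory neuron genes on the array were. Of the 9, Gjb6, a gap junction protein that astrocytes also make, was the 1 that passed without replicate 3 (0.70 with all arrays and 0.93 without).

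For the remaining lists, the counts without replicate 3 stand beside 2.17% of all genes above 0 and 2.37% below. There, 3 of 24 meningeal genes (Fn1, Igf2 and Igfbp5) and 3 of 19 endothelial genes (Slc2a1, Icam1 and Ctla2a) passed above 0 and 0 below. Lipid transport and storage had 3 of 20 above 0, Apod, Abca1 and Abca2, which carry lipids in or out of cells. The neuropeptide list had 4 of 24 above 0 (Tac1, Penk, Vgf and Nptx2), the palmitoylation list 1 of 22 (Abhd4) and the oxidative phosphorylation list 0 of 36. ER stress had 1 above (Hsp90b1) and 1 below (Atf4) of 22, heat shock 2 above (Hspb1 and Hspb8) and 2 below (Hspa4l and Dnajb1) of 16, cell cycle 1 above (Cdkn1a) and 1 below (Ccnd2) of 11, striatum 2 above (Penk and Tac1) and 1 below (Arpp21) of 15, and thalamus 1 below (Ramp3) of 18. Tested probe sets disagreed in sign with all arrays for Atf4 (-0.44 and 0.33) and Hsp90b1 (0.50 and -0.02). Those of Arpp21 ran from -0.41 to 0.28 and those of Ccnd2 from -0.48 to 0.08. Chemokines had 1 of 10 below 0 (Cx3cl1), and antigen presentation (11 genes) and homeostatic microglia (17 genes) had 0. With all arrays 0 members of these lists passed.

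**Figure D5:**
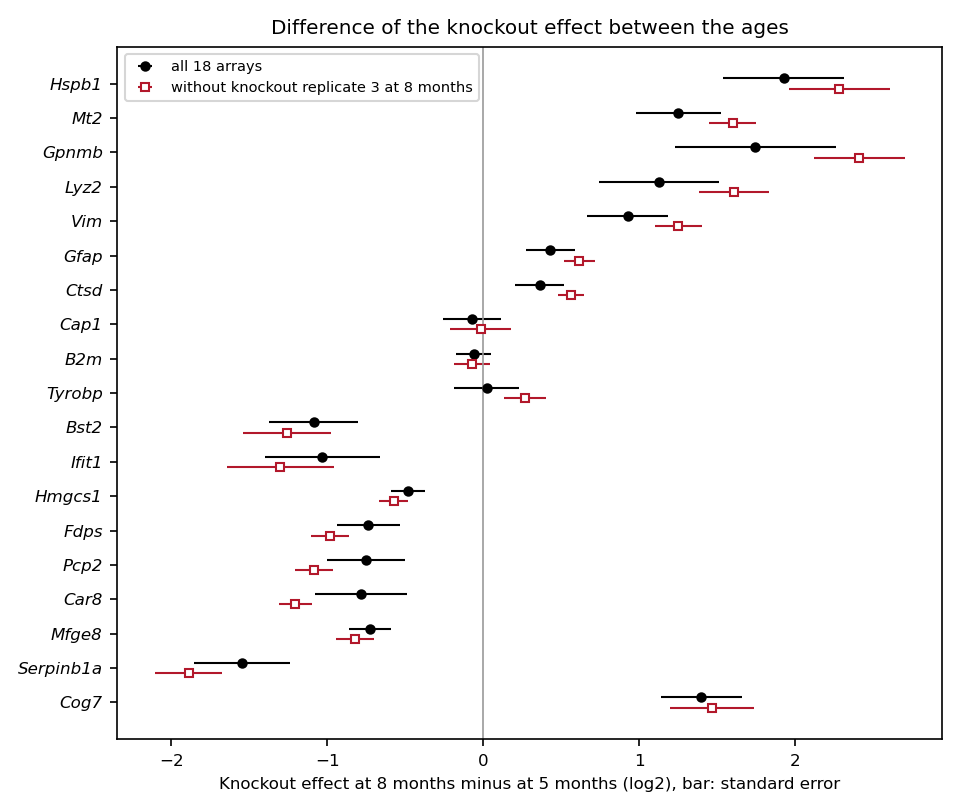
Difference of the knockout effect, 8 minus 5 months (log2, x axis), for 19 probe sets, with all 18 arrays (black) and without knockout replicate 3 at 8 months (red squares), bars being the standard error of the fit. Estimates lie further from 0 without the array for Gpnmb (1.75 with all arrays, 2.41 without) and Car8 (-0.79 and -1.20), and near 0 both ways for Cap1 and B2m.

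Without knockout replicate 3, and so named after values were seen, the largest positive differences were found in Plin4, Sult1a1, Ccn1, Gpnmb and Cdkn1a. Plin4, a coat protein of lipid droplets, read 106, 76.5 and 91.2 in the knockouts and 103, 76.6 and 150 in the wild types at 5 months. The 8-month signals were 732, 222 and 68.1 in the knockouts and 11.6, 32.5 and 43.8 in the wild types. The difference of 3.50 ± 0.49 (adjusted p 0.000321) joined higher knockouts on 2 arrays to lower wild types, 1 of them at background. Cdkn1a, an inhibitor of the cell cycle, read 1916, 273 and 234 in the 8-month knockouts and 81.1, 97.7 and 123 in the wild types, and replicate 1 was far above replicate 2 behind its difference of 2.35 ± 0.57, which was 1.84 with all arrays. Ccn1, a matricellular protein, likewise read 940, 197 and 50.4 in the 8-month knockouts and 49.5, 24.8 and 32.6 in the wild types.

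The largest negative differences without replicate 3 included Cckbr, a receptor for cholecystokinin, which read 13.1, 18.8 and 91.9 in the 8-month knockouts and 94.1, 109 and 129 in the wild types. At 5 months it read 88.8, 71.8 and 93.1 in the knockouts and 71.8, 76.3 and 47.6 in the wild types. Replicates 1 and 2 at 8 months lay below all other arrays, with a difference of -2.32 ± 0.30 (adjusted p 0.000144) and of -1.79 ± 0.45 with all arrays. Rian, a long noncoding RNA, had a difference of -1.84 without replicate 3 at 1 probe set. Its wild-type replicate 2 at 5 months read 842 against 1611 and 1767 in the other wild types of that age, and 2 of its 4 tested probe sets had differences of -0.27 and -0.08 with all arrays.

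Genes that already passed at 3 months offered a set chosen on separate arrays. Of the 184 probe sets higher in the knockout at 3 months (0.681%), the median effect was 0.87 at the age of choice, then 0.89 at 5 months and 0.91 at 8 months. The median difference between 8 and 5 months was 0.02, with 96 above 0 and 88 below. In the single 8-month knockouts the median was 0.85, 1.03 and 0.82, and replicate 3 did not stand apart here. Probe sets on which replicate 3 departs from its group have a wider spread and were less likely to enter the set. At 3 months 258 probe sets passed with all arrays and 441 without replicate 3. The 71 probe sets lower at 3 months, without those of Ppt1 (0.274% with them), had median effects of -0.50 at 3 months, -0.31 at 5 months and -0.25 at 8 months. Of the higher set, 28 probe sets were plateaus between 5 and 8 months (0.64% of all probe sets). Without replicate 3 there were 32 above 0 (2.01% of all probe sets) and 8 below 0 (2%) that passed for the difference.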

How the data were processed

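Total RNA of 18 samples was measured on Affymetrix MOE430 2.0 arrays. The deposited values are intensity signals on a linear scale with about the same trimmed mean on every array. That they had been scaled before deposit was inferred from this, and neither scaling nor software is given in the sources used here. The number of arrays, 3 in each group, limits the precision. Values were taken as log2(signal + 16), 40% of probe sets with the lowest mean and the control probe sets were left out, and limma 3.58.1 in R 4.3.3 fitted 6 groups with a sex term over 18 arrays (trended eBayes, Benjamini-Hochberg adjustment, threshold 0.05). Probe sets were named through the platform annotation, of which 22963 tested probe sets had 1 symbol, 571 several and 3488 none. A gene in a list is read from its brightest probe set. A signal was at background where it did not exceed the 95th percentile of the array's Bacillus control probe sets, and a fold against a group wholly at background is a bound. The code was tested on simulated data. Named genes are Ppt1, up to 15 passing genes with the largest differences each way, and fading and plateau genes with the largest effects. Where fewer than 5 passed, they are the 5 with the smallest unadjusted p each way. List members were named by the smallest p where enough passed, and else by the largest 5-month effect that passed. With all arrays the latter held for every list. Members chosen by a large 5-month effect can appear to fade for that reason alone. Further members are named from the fit without replicate 3. The members and lists were chosen with earlier results of these data known. Alternatives covered the pseudocount, filter, normalization, sex term, samples in the fit, variance model, weights, the plateau bound and leaving out each array. Replicates are numbered in accession order.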

Additional observations from a re-analysis of the deposited data

Results flagged for a closer look

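Among the probe sets picked as named genes and list members, 20 had every knockout array on one side of the wild-type mean at 5 months and on the other side at 8 months. The other tested probe sets were not searched. Many of those searched had been picked for a small p or a large difference, so the 20 is not a share of all 27022. The difference of effects was tested for each, and none passed with all arrays (limma). Differences above 0 were 2.79 for Plin4, 1.62 for Prim1, 1.56 for Itih5, 1.51 for Hif3a, 1.47 for Dock4, 1.40 for Cog7, 0.88 for Zfp326 and 0.87 for Acot11. Smaller ones were 0.85 for Slc2a1, 0.63 for Jund, 0.61 for Vgf and 0.50 for Hsp90b1. Differences below 0 were -1.79 for Cckbr, -1.73 for Serf1, -1.47 for Raly, -1.43 for Rian, -1.27 for Camk2a, -1.07 for B3gnt2, -0.76 for Abcf2 and -0.48 for Hmgcs1. Each value is from 1 probe set. Other tested probe sets had -0.27 for Prim1, -0.02 for Hsp90b1, and 0.03, -0.49 and 0.085 for Serf1. Those of Camk2a had -0.81, -0.02, -0.275 and -0.48, and those of Cckbr, Itih5 and Slc2a1 kept the sign. Groups of 3 arrays were not tested for single arrays that stand apart.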

How the results depend on the processing

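The count of differences that passed was 0 with all arrays and ranged from 0 to 1082 when 1 array was left out, with 0 to 542 above 0 and 0 to 540 below 0, 0 to 987 growing and 0 to 60 fading. The values of 1082, 542, 540, 987 and 60 came without knockout replicate 3 at 8 months, and those without knockout replicate 2 at 8 months were 1, 1 above 0 and 1 growing. Females only, with 1 knockout array at 8 months that is assumed to vary like the other groups, gave 292 (124 above 0 and 168 below), with 268 growing, 17 fading and 69 plateaus, and a median difference of 0.085 for the 3-month calls. Array weights, lowest for knockout replicate 3 at 8 months, gave 185 (97 above 0 and 88 below), with 176 growing and 8 fading. The 12 arrays with a sex term gave 1, above 0 and fading, and 101 plateaus. Plateaus numbered 173 with all arrays, 68 to 261 with 1 array left out, 76 without a variance trend, 359 with a bound of 1 and 46 with a bound relative to the 5-month effect. The causes were not tested. Of 7787 values of 245 gene results, 7351 kept direction and side of the threshold, 229 newly passed, 201 no longer passed and 6 turned sign. The 8-month effect of Penk was 0.062 in females only and 0.018 with array weights, and ranged from -0.06 to 0.057 with 1 array left out (0.057 without knockout replicate 3 and 0.048 without wild-type replicate 1 at 8 months). That of Cnksr2 ranged from -0.126 to 0.083, with 0.083 without wild-type replicate 1 at 8 months. The difference of Dnajb1 ranged from -0.593 without knockout replicate 3 to 0 without knockout replicate 2 at 8 months. The largest shift of the median of all probe sets by scaling was to -0.047. No paired analysis was possible because the labels give no replicate numbers. At 3 arrays a group the median interval half-width was 0.47, narrower for some probe sets and wider for others.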
